A study of Mus musculus with 10 samples.

Results

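The genes described here encode the proteins of the mitochondrial ribosome, and their expression was compared between the cortices of wild-type mouse embryos and of embryos heterozygous for a mutation in Magoh. Members were chosen by name: a gene belonged if the Entrez number of a probe set pointed to a symbol that begins with Mrpl or Mrps followed by a number. This gave 75 of the 20405 genes measured, of which 48 carry a large subunit name (Mrpl) and 27 a small subunit name (Mrps). They lie on 17 chromosomes. The same pattern matched 84 symbols in the gene table. Of the 9 symbols without a member, 6 were pseudogenes and 3 were coding genes. No probe set carried the number of Mrpl53, the probe set titled for S6 carried the number of Slc5a3, and the probe sets of Mrps10 were tied to their gene by a sequence accession only.

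The mitochondrial ribosome translates the few proteins that are still encoded by mitochondrial DNA, all of them subunits of the respiratory chain and ATP synthase. Its ribosomal RNAs come from the mitochondrial genome, whereas its proteins are encoded in the nucleus, made in the cytoplasm and imported. Some of them have counterparts in bacterial ribosomes and others exist only in mitochondria. Magoh is a core subunit of the exon junction complex, which is deposited on spliced mRNA and acts in mRNA localisation, translation and decay.

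Total RNA from the dissected pair of cortices of single embryos at E10.5 was hybridised to Affymetrix GeneChip 1.0 ST arrays, 5 per genotype. The wild-type embryos were C57BL/6. The mutant embryos carried 1 copy of the Mos2 allele of Magoh on the C57BL/6 background. No Cre driver is named, so no restriction of the mutation to a cell type is described, and the cortex was measured whole. Values are log2 levels made by RMA, and each difference is mutant minus wild type on that scale.

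Magoh was lower on every mutant array, at 11.05 ± 0.09 (SD, n = 5) in wild type and 10.21 ± 0.18 (SD, n = 5) in mutant, a difference of -0.84 (SE 0.08, limma adjusted p = 8.5e-05) that left 0.559 of the wild-type level. As a guide to background, the negative-control probe sets of an array had a 95th percentile of 8.57 on average. The cortical progenitor gene Pax6 (9.35 in wild type) lay above this limit. Across all genes, 53 were called higher and 64 lower. Among cell type markers, listed as 10 genes each, 7 neuronal genes and 1 progenitor gene (Fabp7) were called lower. No marker of red cells, endothelium, surface ectoderm, macrophages or mesenchyme was called. All 10 red cell markers had positive differences, with a median of 0.26. Their mean level ran from 9.64 to 9.98 in wild type and from 9.79 to 10.28 in mutant. The 10 endothelial markers (median 0.15, 7.72 to 7.96 against 7.90 to 8.05) and the 10 surface ectoderm markers (median 0.14, 7.68 to 8.02 against 7.82 to 8.01) also had positive differences. In 9 of 10 macrophage markers (median -0.10, 6.32 to 6.43 against 6.14 to 6.36) and 9 of 10 mesenchyme markers (median -0.11, 8.80 to 8.996 against 8.597 to 8.89) the difference was negative. Neuronal markers were negative in 8 of 10, with Neurod6 (0.25, at a level of 3.74 in wild type) and Reln (0.15) positive, and had a median of -0.52, with a mean level of 7.63 to 7.94 in wild type and 6.99 to 7.503 in mutant, and progenitor markers, negative in 8 of 10 with Sox1 (0.01) and Pax6 (0.00) at about 0, a median of -0.17, with 9.72 to 9.89 against 9.52 to 9.69. The part of these lists in the differences given below was not tested, and in tissue RNA fewer cells of a type and less RNA per cell cannot be told apart. Both genotype means exceeded the negative-control limit for 50 of the 75 members, 34 of the large and 16 of the small subunit, against 5235 of all genes. For the other 25 members a difference can include background. Among the markers, both means exceeded the limit for 6 red cell, 3 surface ectoderm, 6 mesenchyme, 2 neuronal and 8 progenitor genes. No endothelial or macrophage marker exceeded it in both genotypes, so marker differences can include background too.

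In the mutant cortex 1 of the 75 mitochondrial ribosomal protein genes, Mrps18b, was called higher and none was called lower by limma at an adjusted p under 0.05. Over all genes, 0.26% were called higher and 0.314% lower, 0.573% in all, and 1 of 75 members is 1.33%. The other 74 members did not pass, and at an adjusted p under 0.1, which 1.1% of all genes met, Mrps18b was still the only member. At an unadjusted p under 0.05, 8 members appeared, 10.7% of them, against a background of 9.25% of all genes, so the shares were close. Of these, 5 were higher (Mrps18b, Mrpl38, Mrps9, Mrps34 and Mrpl20, 6.67% of members against 4.57% of genes) and 3 lower (Mrpl34, Mrpl41 and Mrps16, 4% against 4.68%). Besides Mrps18b the lowest adjusted p was 0.346.

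Mrps18b is a small subunit protein and one of 3 mammalian relatives of the bacterial ribosomal protein S18, and the human protein has also been described as a binding partner of the retinoblastoma protein. On the 5 wild-type arrays its level was 10.07, 10.04, 10.09, 10.13 and 10.01, and on the 5 mutant arrays 10.43, 10.38, 10.33, 10.27 and 10.34. The genotypes did not overlap: the lowest mutant embryo lay above the highest wild-type embryo. The mean went from 10.07 ± 0.05 (SD, n = 5) to 10.35 ± 0.06 (SD, n = 5), a difference of 0.28 (SE 0.06, limma adjusted p = 0.0400, 95% interval 0.16 to 0.41) or 1.22-fold. The size held between 0.26 and 0.30 when any array was left out, but the adjusted p exceeded 0.05 without any of the 5 wild-type arrays or without mutant array 2 or 3, reaching 0.132. A quantile normalisation of the deposited values also moved it to 0.0504. Its relatives Mrps18c (0.05, adjusted p = 0.908) and Mrps18a (0.04, adjusted p = 0.918) did not pass in the limma fit. The differences between the 3 relatives were not tested. Next to Mrps18b in the gene table lies Ppp1r10, a targeting subunit of protein phosphatase 1, whose difference was 0.14 (SE 0.07, limma adjusted p = 0.568). Atat1, a tubulin acetyltransferase gene on its other side, differed by -0.11 (limma adjusted p = 0.844).

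The promoter windows of Mrps18b and of 3 members with negative differences (Mrps16, Mrps24 and Mrpl34) are shown because they are the members whose genotypes did not overlap and the one with the lowest adjusted p after Mrps18b. Each runs from 250 bases before to 50 bases after the gene start on its own strand, taken from RefSeq on GRCm38.p6. Capitals mark matches on either strand to the letters of 5 motifs: GCATGCGC (NRF1), CCGGAAG (the ETS factor GABPA), AAGATGGC (YY1), CACGTG (the E-box bound by MYC) and TATAAA (the TATA box). The motifs share no letters of one match with another in these windows.
Mrps18b, chr17:35916391-35916690, minus strand: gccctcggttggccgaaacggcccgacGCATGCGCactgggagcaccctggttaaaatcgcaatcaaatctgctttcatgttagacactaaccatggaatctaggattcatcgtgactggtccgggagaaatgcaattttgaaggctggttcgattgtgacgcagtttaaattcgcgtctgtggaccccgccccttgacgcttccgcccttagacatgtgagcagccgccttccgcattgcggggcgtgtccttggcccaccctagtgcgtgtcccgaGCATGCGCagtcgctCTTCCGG
Mrps16, chr14:20393441-20393740, minus strand: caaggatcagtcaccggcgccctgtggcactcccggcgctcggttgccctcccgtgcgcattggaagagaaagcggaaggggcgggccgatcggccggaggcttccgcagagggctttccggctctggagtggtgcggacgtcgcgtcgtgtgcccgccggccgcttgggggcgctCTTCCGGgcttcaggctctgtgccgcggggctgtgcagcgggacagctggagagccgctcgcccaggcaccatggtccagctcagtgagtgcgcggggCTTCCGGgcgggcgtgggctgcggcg
Mrps24, chr11:5707652-5707951, minus strand: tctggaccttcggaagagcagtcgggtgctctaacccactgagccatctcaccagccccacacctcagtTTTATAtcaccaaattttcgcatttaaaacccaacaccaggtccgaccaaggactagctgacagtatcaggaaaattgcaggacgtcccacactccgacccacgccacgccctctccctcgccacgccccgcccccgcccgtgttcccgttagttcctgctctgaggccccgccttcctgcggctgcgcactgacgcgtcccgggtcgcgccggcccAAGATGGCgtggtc
Mrpl34, chr8:71464676-71464975, plus strand: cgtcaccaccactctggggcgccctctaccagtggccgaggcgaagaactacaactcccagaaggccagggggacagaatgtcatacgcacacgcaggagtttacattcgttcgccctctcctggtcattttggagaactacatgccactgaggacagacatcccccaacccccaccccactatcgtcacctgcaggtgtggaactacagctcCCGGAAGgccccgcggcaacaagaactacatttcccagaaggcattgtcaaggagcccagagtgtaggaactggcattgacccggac
The window of Mrps18b held the NRF1 letters at 2 places, beginning at -223 and at 28 bases relative to the gene start, and the ETS letters at 43 bases. None of the other small subunit genes with a window, 24 in all with Mrps18b, held the NRF1 letters. Mrps16 held the ETS letters at 2 places, Mrpl34 at 1, and Mrps24 held the YY1 and the TATA letters. Mrps16 has a second listed start, and its window held none of the motifs.

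**Figure D1:**
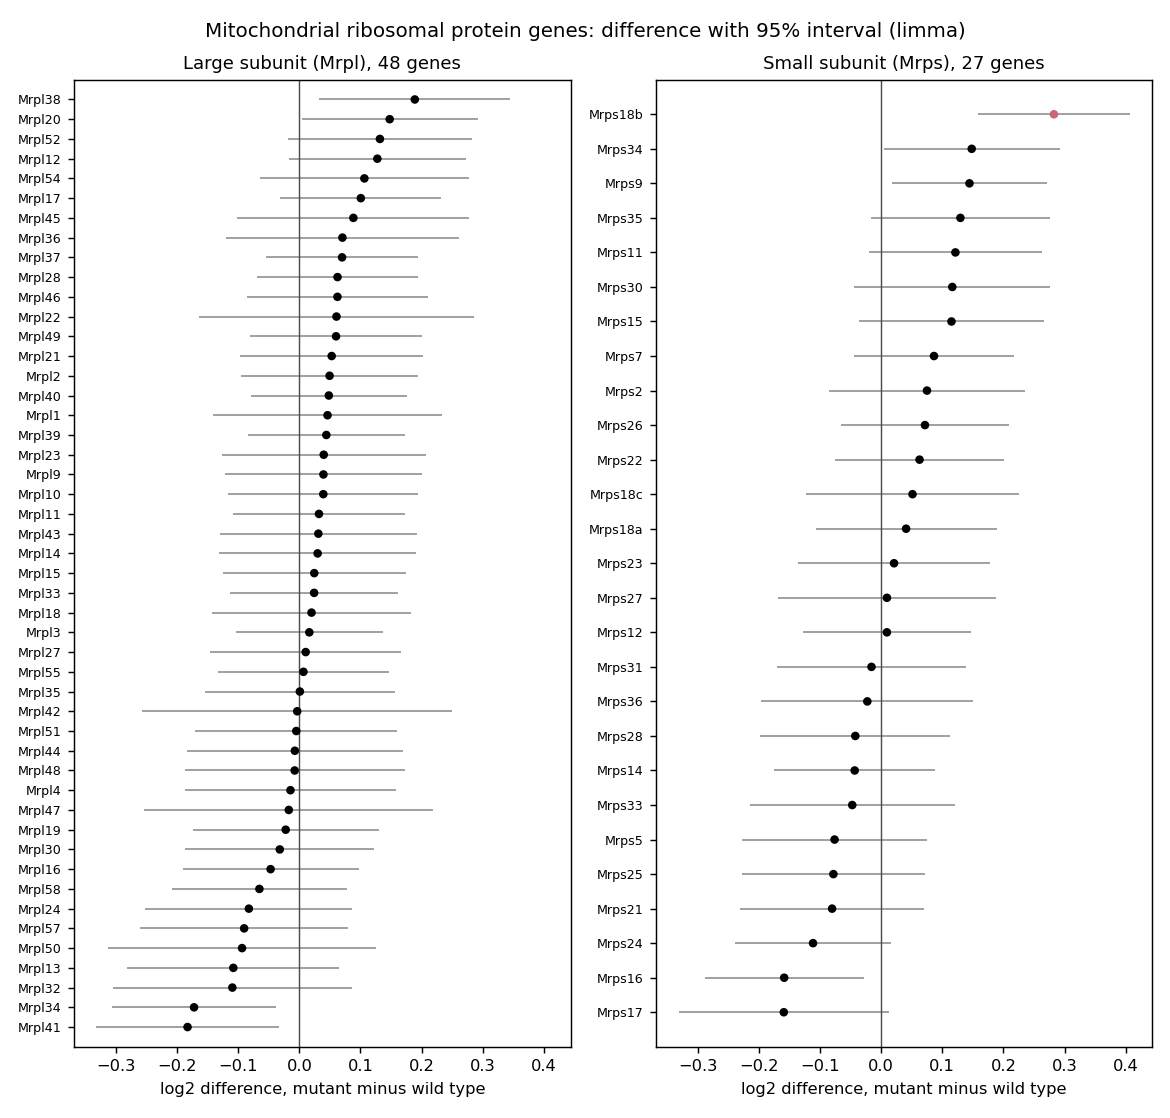
Log2 difference (mutant minus wild type) of each of the 75 members, large and small subunit shown separately, with the 95% interval of the limma fit. The interval of Mrps18b runs from 0.16 to 0.41, and 74 of the 75 differences lie between -0.2 and 0.2.

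Other small subunit genes differed by less. Mrps16, related to bacterial S16, was 10.09, 9.95, 10.004, 9.96 and 9.93 in wild type and 9.84, 9.79, 9.88, 9.73 and 9.90 in mutant. All mutant values lay below all wild-type values, yet the difference of -0.16 (SE 0.06) had a limma adjusted p of 0.396. Mrps24, related to bacterial S3, was 8.25, 8.30, 8.26, 8.44 and 8.26 in wild type and 8.20, 8.22, 8.22, 8.16 and 8.16 in mutant. It did not overlap either, with a difference of -0.11 (SE 0.06, limma adjusted p = 0.619), and both means lay below the negative-control limit. Non-overlap was found in 1 member upwards (1.33%, against 1.43% of all genes) and in 2 downwards (2.67%, against 1.39%), together 4% of members against 2.82% of all genes. Mrps10, a small subunit gene that the number-based choice left out, did not overlap upwards, at 8.14 to 8.27 in wild type and 8.28 to 8.50 in mutant (difference 0.18, limma adjusted p = 0.328). Its second, dimmer probe set gave -0.02, and both means of the brighter one lay below the negative-control limit too.

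Mrps9, related to bacterial S9, was 8.24, 8.30, 8.22, 8.33 and 8.34 in wild type and 8.32, 8.46, 8.47, 8.46 and 8.46 in mutant. Mutant array 1 lay among the wild-type values and the other 4 above them, and the difference was 0.14 (SE 0.06, limma adjusted p = 0.447). Both means of Mrps9 lay below the negative-control limit. Mrps34, a protein found only in mitochondrial ribosomes, was 8.85, 8.95, 8.88, 8.87 and 8.84 in wild type and 8.84, 9.13, 9.02, 9.13 and 9.01 in mutant. Again mutant array 1 lay with the wild type and the other 4 above, for a difference of 0.15 (SE 0.07, limma adjusted p = 0.524). Of the remaining named genes, Mrps17 (-0.16, adjusted p = 0.585), Mrps35 (0.13, adjusted p = 0.609) and Mrps12 (0.01, adjusted p = 0.982), the last a decoding centre protein, did not pass. Both means of Mrps35 and both of Mrps12 lay below the negative-control limit. In mutant array 5 Mrps17 lay at 8.43, below 8.77 to 8.90 in the other mutant arrays. The small subunit as a set had a median difference of 0.02, with 16 positive and 11 negative.

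In the large subunit no gene was called in either direction. The largest positive difference was that of Mrpl38, a mitochondria-only protein, at 9.50, 9.64, 9.68, 9.77 and 9.57 in wild type and 9.94, 9.72, 9.68, 9.94 and 9.82 in mutant. On mutant arrays 1, 4 and 5 it exceeded every wild-type array and on the other 2 it lay within the wild-type range, and the difference was 0.19 (SE 0.07, limma adjusted p = 0.401). Mrpl20, related to bacterial L20, was 8.41, 8.43, 8.18, 8.25 and 8.22 in wild type and 8.45, 8.46, 8.51, 8.45 and 8.34 in mutant. Only mutant array 5 overlapped the wild type, and the difference was 0.15 (SE 0.07, limma adjusted p = 0.526). Both means of Mrpl20 lay below the negative-control limit. Mrpl20 lies on chromosome 4, as do Magoh and 3 other members.

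The negative differences of the large subunit were led by Mrpl41 and Mrpl34. Mrpl34, related to bacterial L34, was 8.81, 8.95, 8.90, 9.01 and 8.99 in wild type and 8.85, 8.75, 8.71, 8.70 and 8.80 in mutant. Wild-type array 1 and mutant array 1 were the arrays that crossed, and the difference was -0.17 (SE 0.06, limma adjusted p = 0.346). Mrpl41, a mitochondria-only protein, was 9.41, 9.32, 9.26, 9.43 and 9.25 in wild type and 9.15, 9.31, 9.17, 9.13 and 8.99 in mutant. Mutant array 2 lay within the wild-type range, and the difference was -0.18 (SE 0.07, limma adjusted p = 0.390). A second, dimmer probe set of Mrpl41 gave 0.11 in the opposite direction, and the mean of both gave -0.04. Of the 11 members with several probe sets, 6 had probe sets of opposite sign (Mrpl18, Mrpl41, Mrpl47, Mrpl48, Mrpl51 and Mrps36).

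**Figure D2:**
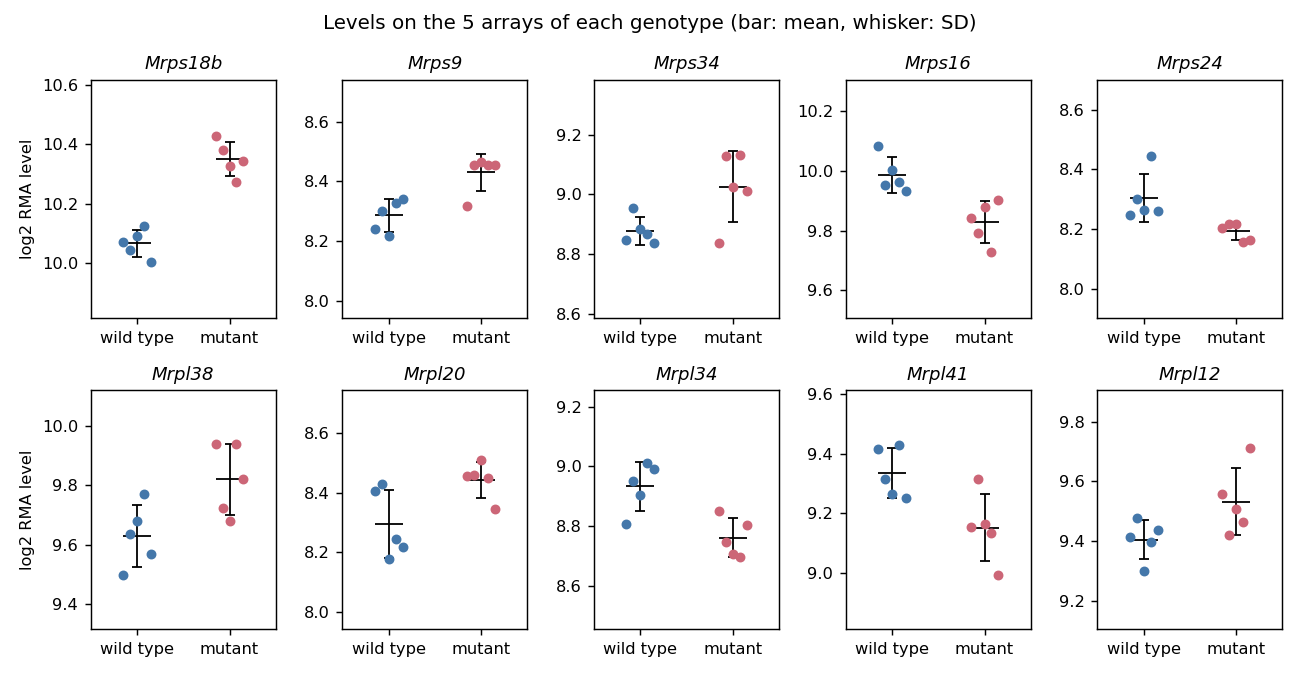
Log2 level on each of the 10 arrays for 10 named members, with the mean of each genotype; every panel spans 0.8 log2 units. Mrps18b, Mrps16 and Mrps24 are the panels whose genotypes do not overlap.

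Grouped by place in the ribosome, the genes of the stalk, which recruits translation factors, had positive differences in 4 of the 4 measured, with a median of 0.07. Mrpl12, the stalk protein that also binds mitochondrial RNA polymerase, was 9.41, 9.48, 9.30, 9.40 and 9.44 in wild type and 9.56, 9.42, 9.51, 9.46 and 9.71 in mutant. The genotypes overlapped, and its difference of 0.13 (SE 0.07) had a limma adjusted p of 0.612. The other stalk genes were Mrpl54 (0.11), Mrpl10 (0.04) and Mrpl11 (0.03), and none passed.

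Around the polypeptide exit, where the new chain leaves the ribosome, 5 of 8 genes were positive and 3 negative (median 0.04). They ranged from -0.08 for Mrpl24 to 0.10 for Mrpl17, both means of which lay below the negative-control limit. In the central protuberance, a projection of the large subunit at its interface with the small subunit, 8 of 10 were positive (median 0.03), among them Mrpl38 and Mrps30. Mrps30 (0.12, adjusted p = 0.709) and Mrps18a are placed in the large subunit despite their names. Mrpl52 (0.13, adjusted p = 0.618) and Mrpl58, a peptidyl-tRNA hydrolase built into the ribosome (-0.07), did not pass. In the head of the small subunit 3 of 7 members were positive and 4 negative, with a median of -0.02. Mrps10 (0.18), measured but not a member, was not counted there.

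The 30 large subunit genes with a bacterial counterpart had a median difference of 0.02 and the other 18 had 0.04. In the small subunit, by symbol, the median was 0.01 for 13 members listed with a counterpart and 0.03 for the other 14. Mrps10 (0.18), which is not a member, was counted in neither. Mrps18a and Mrps18b were counted among these 14, with Mrps18c standing for bacterial S18 in the first list, and Mrps30 was counted there by its name. Mrps36, which is now placed in the 2-oxoglutarate dehydrogenase complex and not in the ribosome, was the dimmest member, at 6.25 and 6.23, and differed by -0.02. Mrpl3, near the peptidyl transferase centre in its bacterial relative, was the steadiest member in the mutants, between 9.30 and 9.33 with an SD of 0.0103. Mrpl42 varied most in the mutants, from 6.86 on array 5 to 7.60 with an SD of 0.301. Both means of Mrpl42 lay below the negative-control limit.

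The median difference was 0.03 for the 48 large subunit genes (31 positive, 17 negative) and 0.02 for the 27 small subunit genes, beside 0.00 for all genes. In all, 47 of the 75 members were positive (62.7%), against 51% of all genes. The absolute difference was under 0.1 in 55 members (73.3%, against 70.7% of all genes), and its median was 0.0600 in members and 0.0623 in all genes. The SE of a member ranged from 0.0564 to 0.119, so differences of this size were not resolved for a single gene. The 95% interval lay within 0.3 of 0 for 68 members and within 0.2 of 0 for 31, and besides Mrps18b no interval reached beyond -0.33 or 0.35.

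Averaged over each set, the genotypes overlapped fully. Relative to the wild-type mean, the large subunit genes lay at -0.05, 0.03, -0.03, 0.09 and -0.03 on the wild-type arrays and at -0.03, 0.07, -0.01, 0.07 and -0.02 on the mutant arrays. The small subunit genes lay at -0.04, 0.02, -0.01, 0.08 and -0.05 on the wild-type arrays and at 0.00, 0.07, 0.03, 0.07 and -0.04 on the mutant arrays. The highest array of all was a wild-type one, array 4, and the subunits followed each other from array to array. Their difference, large minus small, stayed between -0.04 and 0.02 on all 10 arrays. Both sets were read from the same arrays, so a difference between arrays can act on both. Its part was not tested.

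**Figure D3:**
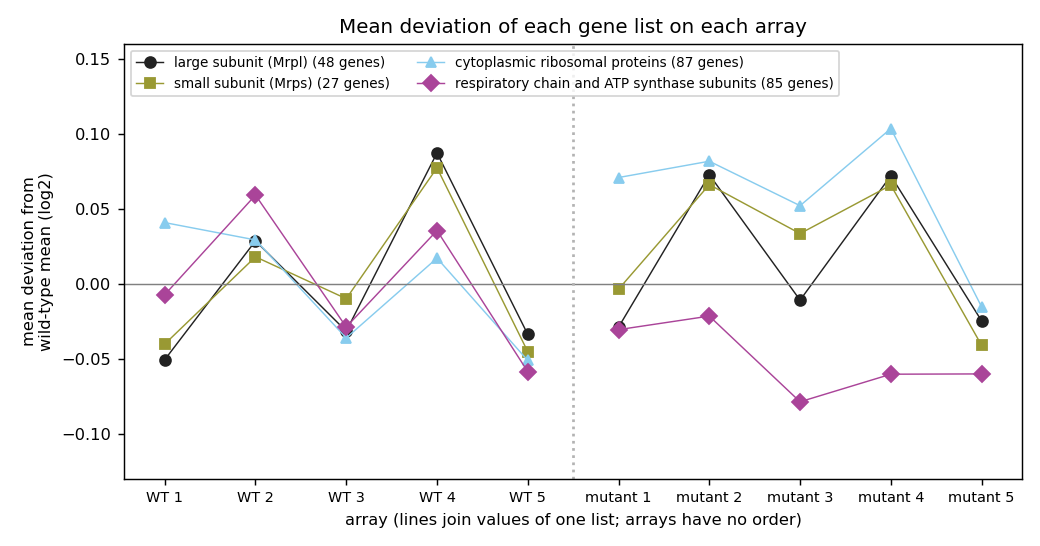
Mean log2 deviation from the wild-type mean on each array for large subunit, small subunit and comparison gene sets. The mitochondrial ribosomal sets of the genotypes overlap, with wild-type array 4 highest at 0.09 for the large and 0.08 for the small subunit.

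Wild-type array 4 held the highest wild-type value in 46 of the 75 members (61.3%) and the lowest in none, whereas it was highest for 25.8% of all genes. The same array was the highest wild-type one for 11 of 19 genes listed with the mitochondrial translation factors and 12 of 29 assembly genes. It was also highest for 9 of 10 surface ectoderm markers (mean deviation 0.25) and 7 of 10 mesenchyme markers (0.14), and for none of the neuronal or progenitor markers. The part of these markers in the members' levels on that array was not tested. Among the mutants, array 2 was highest in 26 members (34.7%, against 13.7% of all genes). Members spread more widely around the wild-type mean on mutant arrays 1 and 5, where the SD over members was 0.176 on each, than on mutant arrays 2 to 4, where it was 0.106 to 0.121. Over all genes the SD was also highest on mutant array 1, at 0.248. The SD between arrays had a median of 0.0847 in wild type and 0.114 in mutant for the members, and of 0.0919 and 0.135 for all genes. It was larger in the mutant for 51 members (68%) and for 73.3% of all genes. Without mutant arrays 1 and 5 the median mutant SD of the members was 0.0742 and that of all genes 0.0876, and the median differences were 0.06 for both subunits.

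The 5 mitochondrial ribosomal proteins with other names (Dap3, Ptcd3, Gadd45gip1, Aurkaip1 and Chchd1) lay between -0.05 and 0.09, and none was called. Of 29 measured genes of ribosome assembly and rRNA maturation none was called (median 0.03), and the lowest p belonged to Fastkd2, an RNA-binding protein of the mitochondrial RNA granule, at 0.21 (limma adjusted p = 0.402), followed by Mterf4, a partner of the rRNA methyltransferase Nsun4, at 0.13 (limma adjusted p = 0.552). Of 19 genes listed with the translation factors none was called (median 0.00). The lowest p belonged to Mief1, which is not a translation factor itself, at 0.17. Qrsl1, a subunit of the glutamyl-tRNA amidotransferase, followed at 0.16. Of 17 mitochondrial aminoacyl-tRNA synthetases none was called (median 0.00), with Sars2 at 0.26 (limma adjusted p = 0.1997) and Yars2 at 0.22 (limma adjusted p = 0.302). Both genotype means exceeded the negative-control limit for 6 of 29 assembly genes, 14 of 19 translation genes and 3 of 17 synthetases. The wild-type means of Fastkd2 (8.07), Mterf4 (7.30), Qrsl1 (8.03), Sars2 (8.47) and Yars2 (8.54) lay below it.

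Among 19 genes of mitochondrial transcription and RNA processing none was called, and the genotypes of 2 did not overlap, both higher in the mutant, as for 1.43% of all genes. Elac2, the endonuclease that cuts the 3′ end of tRNA precursors, went from 9.25 ± 0.06 to 9.50 ± 0.04 (SD, n = 5 each), a difference of 0.25 (SE 0.06, limma adjusted p = 0.0781). Prorp, the nuclease subunit that cuts their 5′ end, went from 8.52 ± 0.08 to 8.74 ± 0.06 (SD, n = 5 each), a difference of 0.22 (SE 0.06, limma adjusted p = 0.171). These cuts also free the ribosomal RNAs from the mitochondrial transcript. Both genotype means exceeded the negative-control limit for 8 of the 19 genes, and the wild-type mean of Prorp lay below it.

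Regulators of nuclear genes for mitochondrial proteins gave no call among 13. Their median was 0.10, with Myc at 0.30 (limma adjusted p = 0.210) and the coactivator Pprc1 at 0.24 (limma adjusted p = 0.199). Pprc1 was the 1 regulator of 13 whose genotypes did not overlap, higher in the mutant (all genes 1.43%). The factors whose motifs were searched differed by 0.10 (Nrf1), -0.01 (Gabpa) and 0.03 (Yy1).

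Cytoplasmic ribosomal protein genes and respiratory chain genes, set beside the mitochondrial ones, held no call either. Of 87 cytoplasmic ribosomal protein genes 67 were positive (median 0.06). Of these 87, 8 were higher and none lower at an unadjusted p under 0.05 (all genes 4.57% and 4.68%). The genotypes of 4 did not overlap, all higher in the mutant, against 1.43% of all genes. Rps19 (0.23, limma adjusted p = 0.171) and Rpl18 (0.22, limma adjusted p = 0.207) led. Of 85 respiratory chain and ATP synthase genes 62 were negative (median -0.05), and 7 were lower and 1 higher at that unadjusted p. The genotypes of 2 did not overlap, both lower in the mutant, against 1.39% of all genes. The lowest p belonged to Cox6b2, a subunit of cytochrome c oxidase known from testis, which differed by 0.41 in the opposite direction (limma adjusted p = 0.0919) at levels of 7.93 and 8.34, below the negative-control limit. Ndufv1, a core subunit of complex I, differed by -0.24 (limma adjusted p = 0.159). The set means overlapped between genotypes only in part. Those of the cytoplasmic genes ran from -0.05 to 0.04 on the wild-type arrays and from -0.02 to 0.10 on the mutant arrays. On mutant arrays 1 to 4 they lay above every wild-type array. Those of the respiratory genes ran from -0.06 to 0.06 in wild type and from -0.08 to -0.02 in mutant. On mutant arrays 3 to 5 they lay below every wild-type array, on 4 and 5 only slightly. The 7 measured genes of the mitochondrial genome, which the mitochondrial ribosome serves, had a median of -0.01 and ranged from -0.11 (ND4L) to 0.03 (ND1). Their set means ran from -0.03 to 0.05 on the wild-type arrays and from -0.22 to 0.10 on the mutant arrays. ND6 (-0.001, SE 0.25) varied from 9.77 to 11.66 in mutant.

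Among the promoters, 66 members had a window in the RefSeq table and 9 had none. The ETS letters were present in 25 of the 66 (37.9%, against 13.8% of 15542 coding genes with a window), the YY1 letters in 12 (18.2%, against 3.81%) and the NRF1 letters in 8 (12.1%, against 4.31%). The E-box was found in 5 (7.58%, against 9.47%) and the TATA letters in 5 (7.58%, against 13.99%). Base composition was alike, with a median GC content of 58% in members and 58.3% in all. The NRF1 letters occurred in 7 of 42 large and 1 of 24 small subunit windows, the ETS letters in 14 and 11, and the YY1 letters in 6 and 6. These shares describe letters in a window and do not show binding, and their differences were not tested.

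The window overlapped that of a coding gene on the opposite strand in 22 members (33.3%, against 8.0% of all coding genes). Mrpl46 and Mrps11 form such a pair with each other and differed by 0.06 and 0.12, with all their means below the negative-control limit. Mrps12 (0.01) overlaps in this way with Sars2 (0.26), and Mrpl43 (0.03) with Twnk (0.09), the mitochondrial DNA helicase. The median difference between genotypes was 0.04 in members with and 0.02 in members without the NRF1 letters, 0.02 and 0.04 for ETS, and 0.03 and 0.03 for YY1. It was 0.07 in the 5 members with the E-box, which ranged from 0.05 to 0.15, and 0.02 without it. It was -0.05 in the 5 members with the TATA letters, which ranged from -0.16 to 0.06, and 0.03 without them. These contrasts between members were not tested.

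**Figure D4:**
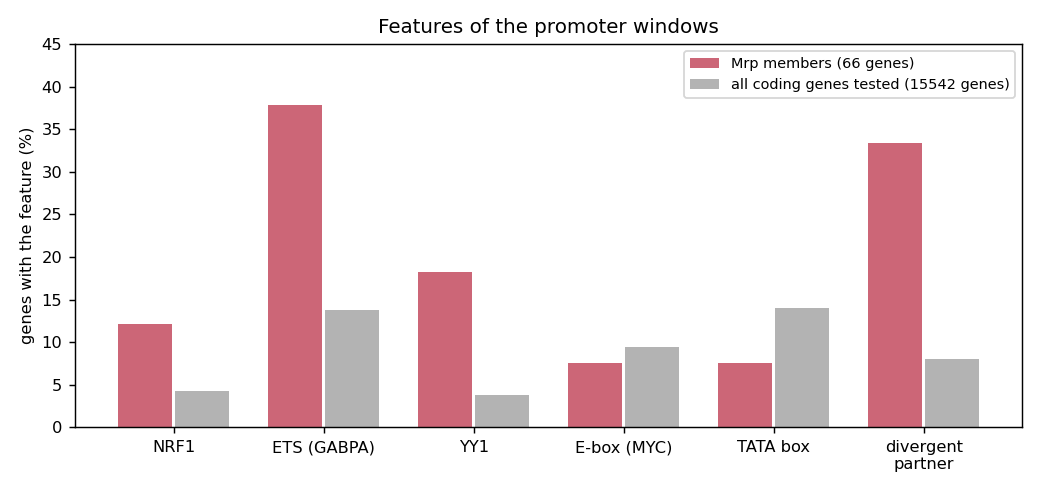
Percent of promoter windows that hold each motif or overlap the window of a coding gene on the other strand, for the 66 members and the 15542 coding genes. The ETS letters stand at 37.9% against 13.8% and the overlapping windows at 33.3% against 8.0%.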

How the data were processed

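Mouse cortex RNA was measured on 10 arrays, 5 per genotype. The deposited values are log2 levels, which, per the submitters' processing notes, the authors made by RMA in Affymetrix Expression Console (versions not given in the sources used here). RMA normalises between arrays, which takes out a shift common to all genes and tends to shrink fold changes. A second deposited table gave titles and Entrez numbers, and 10 columns of per-sample values in it were not used. Of 35557 probe sets, 6546 were controls, 23322 were matched to the GRCm38.p6 gene table by Entrez number and 465 by accession. The probe set with the highest mean was kept for 1929 genes with several, and no dim genes were left out. The probe titles name another assembly, so only the RefSeq promoter windows carry coordinates.

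Genotypes were compared with limma 3.58.1 (lmFit, eBayes) in R 4.3.3, Benjamini-Hochberg over 20405 genes, and called at an adjusted p under 0.05. The script was tested on simulated data. Motifs were searched with Python 3.11.15. Gene sets were described by counts and medians without a test. The members, gene lists and tests were chosen with earlier results of these data known. The named genes were all called or non-overlapping members, the 6 lowest p per subunit with the extremes, Mrps30, Mrps18a, Mrpl12 and Mrps12, and the 2 lowest p per other list, with marker lists given mainly by counts; further genes are named for their role or position. Replicates are biological per the labels, and p-values measure the spread between these embryos. Litters and hybridisation days are not tied to arrays, so no batch was tested. The number of arrays limits the precision.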

Additional observations from a re-analysis of the deposited data

Results flagged for a closer look

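In 10 of 150 groups of 5 values (75 members in 2 genotypes) a single array stood apart from the other 4, with a gap to its neighbour over 0.71 of the group's range. Chance gives about 1 in 20 such groups. In wild type, array 1 was low for Mrpl16 (gap of 0.734 of the range), Mrps26 (0.7372) and Mrps5 (0.7665), array 4 was high for Mrps24 (0.7288) and array 2 high for Mrps33 (0.7264). In the mutants, array 1 was low for Mrps9 (0.9291) and Mrps28 (0.7282), array 5 low for Mrpl23 (0.7765) and Mrps17 (0.7285), and array 3 low for Mrpl17 (0.7592). The widest gap was that of Mrps9, at 8.32 on mutant array 1 and 8.46 to 8.47 on the other 4.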

How the results depend on the processing

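The direction of Mrps18b held under every alternative run, and its difference lay between 0.26 and 0.30. Its call was lost with quantile normalisation (0.28, limma adjusted p = 0.0504), with the replicate number as a block (0.28, adjusted p = 0.0989) and without mutant array 2, mutant array 3 or any wild-type array (highest adjusted p 0.132), so the count of members called higher was 0 in those settings and 1 in the others at an adjusted p under 0.05. No member was called lower in any setting. Over all genes, 175 were called higher and 233 lower with array weights, 104 and 120 at an adjusted p under 0.1, and 43 and 29 when dim genes below the negative-control limit were left out. Without mutant arrays 1 and 5, a setting chosen after seeing the data, the counts were 253 and 249. Leaving out 1 array at a time gave 32 to 89 higher and 31 to 96 lower, and 0 to 1 members called higher. The numbers were lowest without wild-type array 1 (32 higher) or 2 (31 lower) and highest without mutant array 1. Mrps12, near 0, turned to -0.0113 with array weights, to -0.0209 without mutant arrays 1 and 5, and ranged from -0.0122 to 0.0465 with 1 array left out. The median difference ranged from 0.01 (without mutant array 4) to 0.05 (without wild-type array 4) for the large subunit and from 0.00 (without mutant array 2) to 0.06 (without wild-type array 4) for the small subunit. In the other settings it was 0.02 to 0.06 and 0.01 to 0.06. With the replicate number as a block, 40 genes were called higher and 43 lower. Arrays of the same number correlated between -0.07 and 0.36 in their deviations, and 1 of 5 wild-type arrays correlated best with its own number, so the numbers were not taken as pairs. Leaving out pseudogenes could give no value, since no member is one. The 25 members below the negative-control limit in a genotype are limited by background.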
